A study of Mus musculus with 3 samples.

Results

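Peaks of Smad3 and of the histone demethylase JMJD3 were examined at 48 genes of bone morphogenetic protein (BMP), activin and growth and differentiation factor (GDF) signalling, out of 16428 genes that the deposited peak lists name as the closest to a peak. The genes were chosen by symbol: those that begin with Bmp, Gdf, Inhb, Nodal, Lefty, Acvr, Chrd, Grem, Fst, Bambi, Twsg or Amhr, and Inha, Nog and Eng. The rule used no measured value. By role they were sorted into 20 ligand genes, 10 receptor genes and 12 genes of inhibitors and modulators (Lefty1 among them). A further 6 genes share a symbol prefix and were not placed in these roles. A RefSeq gene table (GRCm38.p6) holds 57 symbols that the rule takes. The 9 that no peak in either list names as the closest gene were Amhr2, Bmp15, Bmp4-ps, Bmp8b, Gdf2, Gdf3, Gdf9, Inhbe and Lefty2.

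The data are chromatin immunoprecipitation and sequencing (ChIP-seq) peak lists from neural stem cells of the cerebral cortex of wild-type mouse embryos at embryonic day 12.5, kept in culture with EGF and FGF. All libraries came from cells given TGFb at 5 ng/ml, for 30 minutes per the series text, and the labels name 1 library each of Smad3, JMJD3 and input DNA without antibody. Effects of TGFb cannot be read from these lists, which hold no untreated cells. With single libraries there is no replicate error, and antibodies and gene groups were described without tests. The input library was not used here.

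The Smad3 list held 98086 peaks and the JMJD3 list 63154, without height, fold enrichment or read number, so the depth behind a peak is unknown. Each row gives positions on mm9 and the signed distance from the closest transcription start site (TSS) to the peak midpoint, negative upstream. A promoter peak is one with that distance at most 1000 bp, and all others are distal. Peaks of a list at most 10 bp apart were joined into regions, whose width is the only graded value in the lists. Of 12 neural stem and progenitor markers, 11 had promoter peaks of both factors, against 55.1% of all genes named, and Prom1 had none. Of 6 neuronal markers, Tubb3 had both and Syt1 Smad3 alone, and of 6 markers of other lineages 0 had either. Peaks do not measure expression, and the marker lists were chosen with earlier results of these data known. These counts are therefore no independent check of the labelled cell type.

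BMPs, activins and GDFs are secreted dimers of the TGF-beta superfamily. They bind pairs of type I and type II serine/threonine kinase receptors, and the type I receptor phosphorylates Smad proteins, with Smad1, Smad5 and Smad9 downstream of BMPs and Smad2 and Smad3 downstream of activins, Nodal and TGF-beta. Secreted antagonists such as noggin, chordin and follistatin hold the ligands away from the receptors. In the embryonic forebrain, BMPs pattern the dorsal midline and direct progenitors toward glial fates. JMJD3, the product of Kdm6b, removes methyl groups from lysine 27 of histone H3.

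To show the DNA behind the results, the 250 bases upstream of the TSS are given for 6 genes with promoter peaks of both factors, ranked by whichever of a gene's width percentiles was lower, among those whose RefSeq start could be matched to the listed TSS. The sequences are from RefSeq promoters on GRCm38.p6, a later build than that of the peaks, so they were placed by distance from the TSS and not by coordinates. An entry was found for 33 of the 48 genes, and for 21 the length from the start to the far end of the gene was within 100 bp of that in the files. Capitals mark CAGAC or its reverse complement GTCTG, the core Smad binding element, and GGCGCC, a GC-rich element that Smads can bind.
Bmp2k: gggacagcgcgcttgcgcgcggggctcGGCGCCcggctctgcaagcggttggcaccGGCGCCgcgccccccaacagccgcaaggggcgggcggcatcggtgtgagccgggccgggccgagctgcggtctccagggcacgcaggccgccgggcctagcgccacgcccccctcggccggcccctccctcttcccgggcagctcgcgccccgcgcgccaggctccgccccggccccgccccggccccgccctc
Acvr2a: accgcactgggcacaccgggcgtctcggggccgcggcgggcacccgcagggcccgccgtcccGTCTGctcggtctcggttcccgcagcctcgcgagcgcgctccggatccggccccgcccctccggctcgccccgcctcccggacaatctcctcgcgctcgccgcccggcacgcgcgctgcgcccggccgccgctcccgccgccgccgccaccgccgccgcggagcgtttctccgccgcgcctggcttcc
Acvr1: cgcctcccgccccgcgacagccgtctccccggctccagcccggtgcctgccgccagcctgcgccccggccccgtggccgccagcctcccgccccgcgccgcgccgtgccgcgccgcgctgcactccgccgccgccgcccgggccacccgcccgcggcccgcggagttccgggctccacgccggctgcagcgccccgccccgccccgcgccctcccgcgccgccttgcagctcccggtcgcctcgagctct
Bmper: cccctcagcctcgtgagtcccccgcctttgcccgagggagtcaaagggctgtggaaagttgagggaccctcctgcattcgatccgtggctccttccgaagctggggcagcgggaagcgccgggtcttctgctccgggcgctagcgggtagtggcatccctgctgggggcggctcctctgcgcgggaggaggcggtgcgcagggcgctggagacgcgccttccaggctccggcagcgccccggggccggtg
Bmpr1a: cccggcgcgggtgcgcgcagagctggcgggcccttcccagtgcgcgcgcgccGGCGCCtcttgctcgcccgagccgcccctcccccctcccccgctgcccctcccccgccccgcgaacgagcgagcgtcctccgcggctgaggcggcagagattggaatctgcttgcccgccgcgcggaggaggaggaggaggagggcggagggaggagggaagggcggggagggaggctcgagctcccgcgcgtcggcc
Twsg1: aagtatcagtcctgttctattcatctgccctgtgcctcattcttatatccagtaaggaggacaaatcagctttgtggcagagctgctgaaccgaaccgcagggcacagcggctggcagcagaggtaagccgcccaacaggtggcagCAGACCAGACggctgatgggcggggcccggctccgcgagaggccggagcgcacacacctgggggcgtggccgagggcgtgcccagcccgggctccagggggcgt
The stretches lie at chr5:96997439-96997688 (plus strand) for Bmp2k, chr2:48813859-48814108 (plus) for Acvr2a, chr2:58566829-58567078 (minus) for Acvr1, chr9:23222826-23223075 (plus) for Bmper, chr14:34502547-34502796 (minus) for Bmpr1a and chr17:65951188-65951437 (minus) for Twsg1. Counted in distance from the TSS, Smad3 peaks covered 245 of the 250 bases at Bmp2k, 250 at Acvr2a, 129 at Acvr1, 241 at Bmpr1a and 250 at Twsg1. JMJD3 peaks covered 250, 241, 241, 82 and 241 of them in the same order. At Bmper neither factor covered any of the 250 bases, since its main promoter region lay downstream of the start.

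The stretches were rich in G and C, from 64.4% at Twsg1 to 85.6% at Acvr1. Over the 9 matched genes with both factors the median was 71.6% (range 56.8 to 85.6), over the 8 matched genes with neither factor at the promoter 58.2% (46.8 to 72.0), and over 32536 distinct RefSeq promoters of the same length 52.4%. Twsg1 held CAGAC at -104 and again at -99, next to each other, and Acvr2a held it on the other strand at -188. GGCGCC stood at -223 and -194 in Bmp2k and at -198 in Bmpr1a. Acvr1 and Bmper held none of the motifs searched. Motifs were searched on both strands, and no marked motif overlapped another. CAGAC was found in 9 of the 21 matched genes and in 42.2% of all promoters, and GGCGCC in 5 and in 9.65%. The AP-1 site TGANTCA was found in 0 of the 21 and in 6.73% of all promoters, and the E-box CACGTG in 1 and in 6.04%. CAGAC was in 4 of the 9 with both factors and in 4 of the 8 with neither, and GGCGCC in 3 and in 1. The sets of promoters compared were not matched for G and C content, and their motif shares were not tested. The motifs are matches of letters within this window, not binding sites.

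The share of these genes with a promoter peak was lower than that of all genes named, and the share with a distal peak higher. These shares are linked, since a gene is listed only if a peak names it, and so each of the 18 genes without a promoter peak has a distal one. The shares were not scaled for the stretch closer to a gene's TSS than to any other listed TSS. A gene with a long stretch can be named by more distal peaks. Smad3 had a promoter peak at 29 of 48 genes (60.4%, exact Clopper-Pearson 95% interval 45.3 to 74.2), where the share over all 16428 genes was 73.1%. JMJD3 had one at 22 (45.8%, 31.4 to 60.8), against 57.1% of all genes. Both factors were at 21 (43.8%, 29.5 to 58.8), against 55.1%. Smad3 without JMJD3 was at 8 genes, against 17.9% of all genes, JMJD3 without Smad3 at 1, against 1.95%, and neither at 18, against 25.0%. The first pair of these counts was also taken with lists of equal length. With the Smad3 list shortened to as many peaks as that of JMJD3, keeping those in the widest regions, Smad3 without JMJD3 was at 2 genes (Chrdl1 and Inhbb), against 11.9% of all genes. JMJD3 without Smad3 was then at 4 (Bmp2, Fstl5, Inha and Twsg1), against 6.43%. Removing only Smad3 peaks can lower the first of these counts and raise the second, but not the reverse. The cut also took out the narrower regions, so list length and width cannot be told apart. Distal Smad3 peaks named 39 of the 48 genes (81.2%, 67.4 to 91.1), against 72.9%, and distal JMJD3 peaks 38 (79.2%, 65.0 to 89.5), against 61.0%. Distal peaks of both factors named 34 of the 48, against 56.7% of all genes. The share of all genes lay inside the interval of the 48 genes for promoter peaks of Smad3, of JMJD3 and of both, and for distal Smad3 peaks. For distal JMJD3 peaks it lay below the lower bound of 65.0%. The intervals cover counting error only and take no account of stretch length.

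Per gene, the receptor genes had the most peaks and the ligand genes the fewest among these roles. These numbers were not scaled for the stretch closer to a gene's TSS than to any other listed TSS. Per 100 kb of it, Smad3 peaks ranged from 1.09 (Acvr2a) to 16.9 (Bmpr1a) among receptor genes. Among ligand genes they ranged from 0 (Bmp10 among others) to 28.0 (Gdf15). Smad3 promoter peaks were at 9 of 20 ligand genes (45.0%, 23.1 to 68.5), at 8 of 10 receptor genes (80.0%, 44.4 to 97.5) and at 7 of 12 genes of inhibitors and modulators (58.3%, 27.7 to 84.8). The Smad3 share over all genes was 73.1%. For JMJD3 the counts were 6, 6 and 5, where the share over all genes was 57.1%. The median gene had 2 Smad3 and 1 JMJD3 peaks among ligands, 9 and 6.5 among receptors, and 3.5 and 2.5 among inhibitors and modulators, where the median of all genes was 3 and 2. All 10 receptor genes had distal peaks of both factors (100%, 69.2 to 100), against 56.7% of all genes. The intervals of the roles overlap widely, and the difference between roles was not tested.

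**Figure D1:**
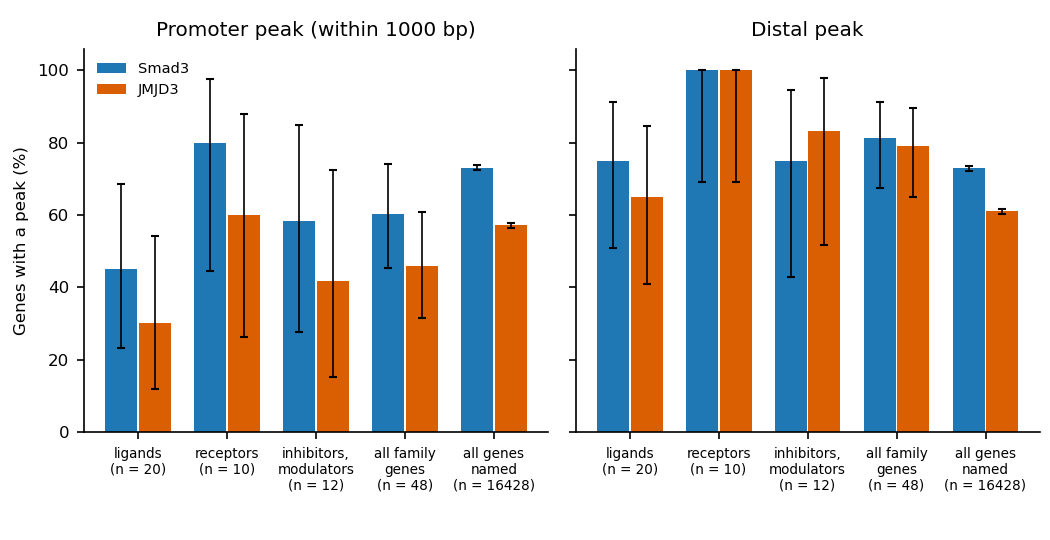
Share of genes (percent) with a promoter peak (left) and with a distal peak (right) of Smad3 and JMJD3, by role, for all 48 family genes and for all 16428 genes named. Bars are shares (Smad3 blue, JMJD3 orange) and lines exact 95% intervals; receptors stand at 80.0% and 60.0% for promoter peaks and at 100% for distal peaks.

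**Figure D2:**
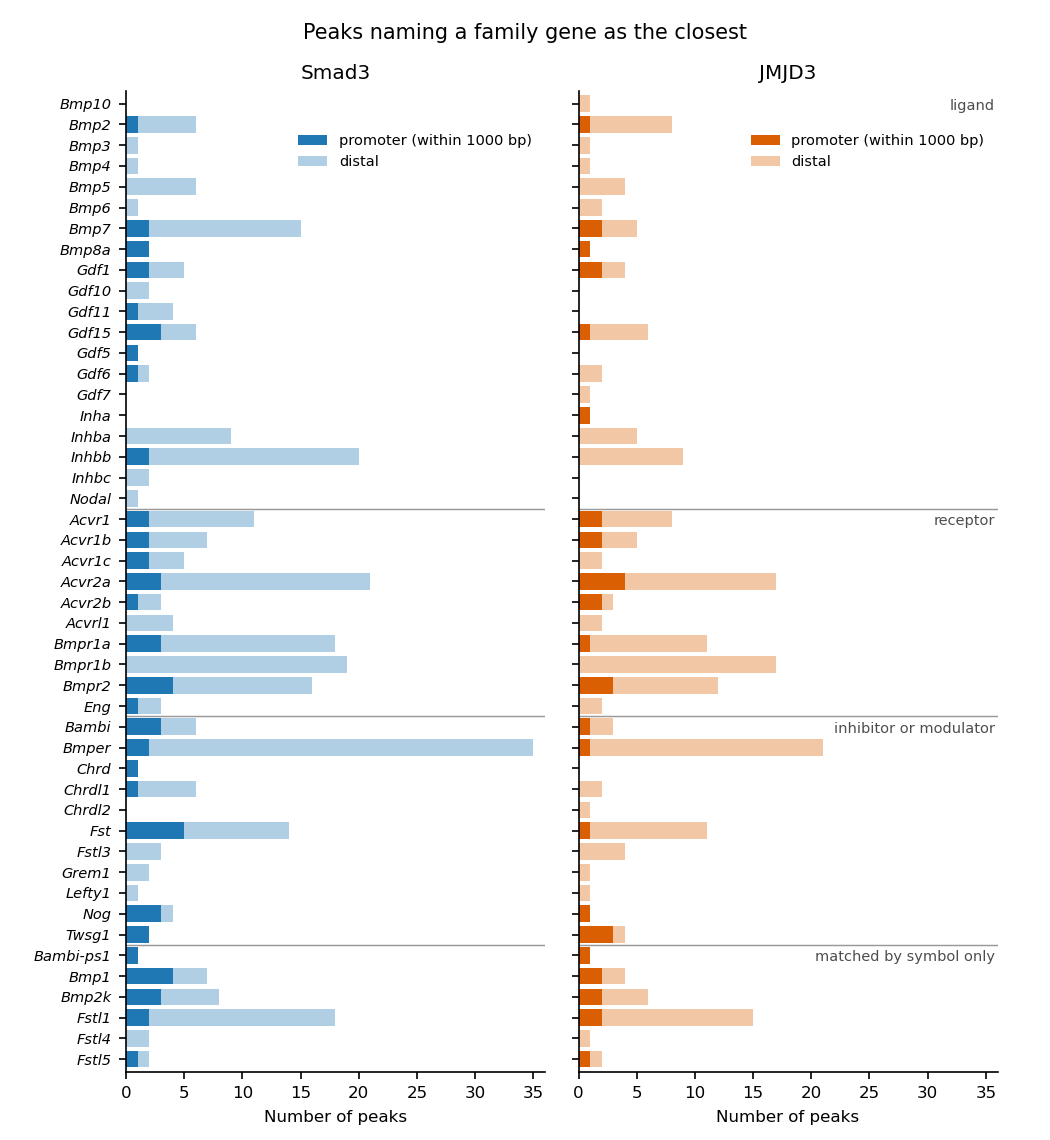
Number of Smad3 (left) and JMJD3 (right) peaks that name a family gene as the closest, 1 gene not shown, with promoter peaks in dark and distal peaks in light colour. Bmper has the most, 35 and 21, and most ligand genes have few.

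As a family set beside these, 39 genes of Wnt ligands, receptors and antagonists had Smad3 promoter peaks at 26 (66.7%, 49.8 to 80.9) and JMJD3 promoter peaks at 19 (48.7%, 32.4 to 65.2). The 11 genes of TGF-beta ligands, receptors and latent binding proteins had them at 10 (90.9%, 58.7 to 99.8) and 5 (45.5%, 16.7 to 76.6). All these intervals overlap those of the BMP, activin and GDF genes.

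Among the ligand genes, 5 of 20 (25.0%, 8.66 to 49.1) had promoter peaks of both factors, against 55.1% of all genes. At Bmp2 (Entrez 12156), a ligand that induces bone and dorsal neural fates, the Smad3 region lay at chr2:133377821-133378231 and was 411 bp wide, and the JMJD3 region at chr2:133377511-133378320 was 810 bp wide. Both ended upstream of the TSS, with their downstream edges at -703 and -614 bp. At Bmp7 (Entrez 12162), a ligand made by the dorsal midline and kidney, Smad3 and JMJD3 regions of 721 and 690 bp began at the same base, chr2:172765621, and spanned the TSS. Bmp8a had regions of 470 and 430 bp over its TSS.

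Gdf1, a partner of Nodal in left-right patterning, had a Smad3 region of 490 bp over its first TSS and a JMJD3 region of 331 bp that began 728 bp downstream of it. Between them a narrower Smad3 peak contained a JMJD3 peak. The TSS is shared with Lass1, from whose transcript Gdf1 is also made, so these peaks cannot be credited to Gdf1 alone. Gdf15, a stress-induced cytokine, had a Smad3 region of 470 bp over the TSS, from -136 to 333 bp. Its JMJD3 region was 1510 bp wide, at percentile 91.9 of the widest promoter regions of all genes. However, it ran from 544 to 2053 bp downstream and so lay inside the gene body. It met a Smad3 region of 1121 bp there.

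Smad3 promoter peaks without JMJD3 were listed at 4 ligand genes (20.0%, against 17.9% of all genes), and all were narrow except that of Inhbb. Inhbb, which encodes the beta-B subunit of activin and inhibin, had a Smad3 region of 720 bp that ended 16 bp before the TSS. Gdf11, a negative regulator of neurogenesis in the olfactory epithelium, had 320 bp, Gdf6 370 bp and Gdf5 290 bp. No JMJD3 peak named Gdf11 or Gdf5 at any distance.

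Inha, the inhibin alpha subunit gene, was the only one of the 48 genes with a JMJD3 promoter peak and no Smad3 one. Its TSS lies 624 bp from that of Obsl1. The JMJD3 region there, chr1:75502411-75503510, was 1100 bp wide and made of 3 peaks, of which 2 name Obsl1. Both Smad3 peaks in that stretch, chr1:75502751-75503051 and chr1:75503061-75503410, name Obsl1, and the nearer ends 241 bp from the Inha TSS.

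The other 10 ligand genes had no promoter peak of either factor. They were Bmp3, Bmp4, Bmp5, Bmp6, Bmp10, Gdf7, Gdf10, Inhba, Inhbc and Nodal. Bmp4, a central ligand of the dorsal telencephalon, was named by 1 peak of each factor, both centred 4693 bp downstream of the TSS inside the gene. Bmp5 had 6 Smad3 and 4 JMJD3 peaks, all inside the gene. Inhba, the beta-A subunit gene of activin, had 9 and 5, with the nearest at -149255 bp for Smad3 and at -168525 bp for JMJD3. Gdf7, a roof plate ligand, and Bmp10 were each named by 1 JMJD3 peak only, and Nodal by 1 Smad3 peak at 6733 bp.

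Among the receptor genes, 6 of 10 (60.0%, 26.2 to 87.8) had promoter peaks of both factors, near the 55.1% of all genes. They included both receptor types. These were the type I receptor genes Acvr1, Acvr1b and Bmpr1a and the type II receptor genes Acvr2a, Acvr2b and Bmpr2. At Bmpr2 (Entrez 12168), the type II receptor for BMPs, JMJD3 formed the widest promoter region of all members, 1930 bp at chr1:59819081-59821010 (percentile 97.4), from -2399 to -470 bp. The widest Smad3 region there was 810 bp at chr1:59820041-59820850 (percentile 55.5), within the JMJD3 region. Further peaks of both factors followed downstream, and the promoter window held 4 Smad3 and 3 JMJD3 peaks.

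Acvr1 (Entrez 11477), a type I receptor for BMPs and activins, had a Smad3 region of 810 bp (chr2:58419361-58420170) that stopped 122 bp before the TSS. Its JMJD3 region of 1370 bp (chr2:58418961-58420330) reached 278 bp past it. Acvr2a (Entrez 11480), a type II receptor for activin, had 890 bp (chr2:48669051-48669940) and 1250 bp (chr2:48668871-48670120), and the JMJD3 region contained the Smad3 region. At Acvr1b, the activin and Nodal type I receptor gene, regions of 680 and 710 bp ended at the same base, 135 bp past the TSS. At these 4 genes the JMJD3 region was the wider.

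The order was the other way at Bmpr1a and Acvr2b. Bmpr1a (Entrez 12166), a type I BMP receptor gene of neural progenitors, had a Smad3 region of 960 bp (chr14:35315621-35316580, percentile 70.1) over the TSS. Its JMJD3 region of 570 bp (chr14:35315901-35316470, percentile 14.4) ended upstream of the TSS, at -169 bp. Acvr2b had 720 and 571 bp, both upstream of the TSS. Acvr1c, the gene of the activin receptor ALK7, and Eng, a co-receptor gene of endothelial cells, had Smad3 promoter regions of 400 and 370 bp and no JMJD3 one. Acvrl1, an endothelial type I receptor gene, and Bmpr1b had no promoter peak.

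Among inhibitors and modulators, 5 of 12 genes (41.7%, 15.2 to 72.3) had promoter peaks of both factors, against 55.1% of all genes. Nog (Entrez 18121) encodes noggin, which binds BMPs and keeps the adult neural stem cell niche neurogenic. Its Smad3 region was 970 bp (chr11:89163581-89164550, percentile 70.9) and its JMJD3 region 500 bp (chr11:89163471-89163970, percentile 8.3). It had 3 Smad3 and 1 JMJD3 promoter peaks, 1 further Smad3 peak, and no distal JMJD3 peak. Fst (Entrez 14313) encodes follistatin, which binds activin. It had 5 Smad3 promoter peaks, more than any other member, the widest region being 530 bp, and 1 JMJD3 region of 650 bp over the TSS.

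Bambi, the gene of a receptor decoy without a kinase domain, had regions of 700 and 741 bp over its TSS, uncertain because a pseudogene copy may share its reads. Twsg1, whose product binds BMPs together with chordin, had 420 bp for Smad3 (chr17:66300371-66300790) and 730 bp for JMJD3 (chr17:66300281-66301010). These span the stretch printed above with its adjoining CAGAC matches. Bmper, the gene of a BMP-binding modulator, had 550 and 700 bp that began at the same base, 102 bp downstream of the TSS. Chrd, the gene of chordin, and Chrdl1 had Smad3 regions of 271 and 460 bp and no JMJD3 promoter peak. Grem1, Fstl3, Lefty1 and Chrdl2 had no promoter peak, although the nearest peaks of Fstl3 lay at 1009 bp for Smad3 and 1014 bp for JMJD3, just past the limit. Just inside it were Smad3 peaks of Nog at -998 bp and Fst at -957 bp, genes with other Smad3 promoter peaks. The only Smad3 promoter peaks of Bmp2 and Gdf5 lay at -907 and -895 bp. With a window of 500 bp neither gene had a Smad3 promoter peak, and Bmp2 and Gdf15 had no JMJD3 one.

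Of the 6 genes matched by symbol and not placed in these roles, 5 (83.3%, 35.9 to 99.6) had both factors, against 55.1% of all genes. Bmp2k, a protein kinase gene, had the widest Smad3 promoter region of all members, 1420 bp (chr5:97426111-97427530, percentile 91.6), inside a JMJD3 region of 1870 bp (chr5:97425881-97427750, percentile 97.0). Bmp1, the gene of a protease that cleaves procollagen and chordin, had 690 and 910 bp. Fstl1 had 600 and 471 bp, Fstl5 350 and 490 bp. Bambi-ps1 is a pseudogene copy of Bambi, with 810 and 640 bp. How reads that match both copies were handled is not given in the sources used here, so the peaks of both Bambi and Bambi-ps1 are uncertain. Fstl4 had no promoter peak.

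**Figure D3:**
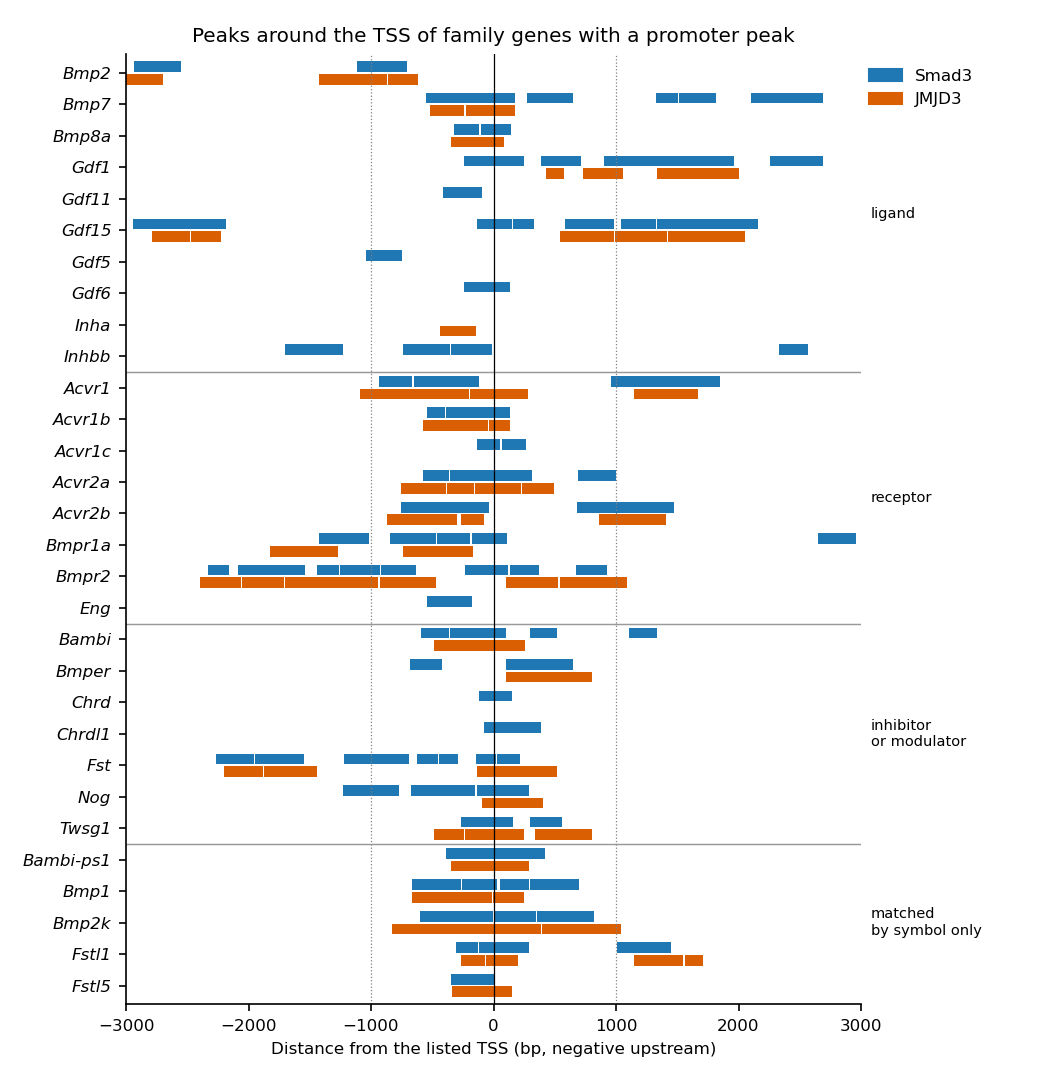
Smad3 (blue) and JMJD3 (orange) peaks within 3000 bp of the listed TSS (x axis, bp, negative upstream) for the 30 family genes with a promoter peak, grouped by role; dotted lines mark 1000 bp on either side. Only peaks that name the gene are drawn; at Bmpr2 the joined JMJD3 region starts at -2399 bp, and at Inha only JMJD3 is drawn because the Smad3 peaks there name Obsl1.

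Promoter regions of these genes had lower median widths than those of all genes, and a smaller share lay over the TSS. The widest Smad3 promoter region per gene had a median of 550 bp (range 271 to 1420) over 29 members, against 760 bp over all 12007 genes. For JMJD3 the medians were 705 bp (331 to 1930) over 22 members and 860 bp over all 9380. Over the Wnt genes the medians were 605.5 bp for Smad3 and 740 bp for JMJD3, and over the TGF-beta genes 865 and 1340 bp. A Smad3 promoter region lay over the TSS at 21 of 29 members (72.4%, 52.8 to 87.3), against 89.0% of all genes. A JMJD3 region did so at 14 of 22 (63.6%, 40.7 to 82.8), against 92.0%. Both shares of all genes lay above the upper bound for the family. Where both factors were present, JMJD3 formed the wider region at 13 of 21 members (61.9%) and at 58.1% of all genes. The widest regions of the factors overlapped at 18 of the 21 (85.7%), against 95.1% of all genes, and Fst, Gdf1 and Gdf15 were the exceptions. At these exceptions the JMJD3 promoter peaks overlapped Smad3 peaks outside the widest Smad3 promoter region.

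With only the 50% of peaks in each list that lay in the widest joined regions (at least 561 bp for Smad3 and 740 bp for JMJD3), both factors remained at 6 promoters, those of Acvr1, Acvr2a, Bambi, Bmp1, Bmp2k and Bmpr2. That is 12.5% of the 48, against 33.7% of all genes. Smad3 was then at 14 promoters (29.2%, against 53.4%) and JMJD3 at 9 (18.8%, against 37.6%).

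**Figure D4:**
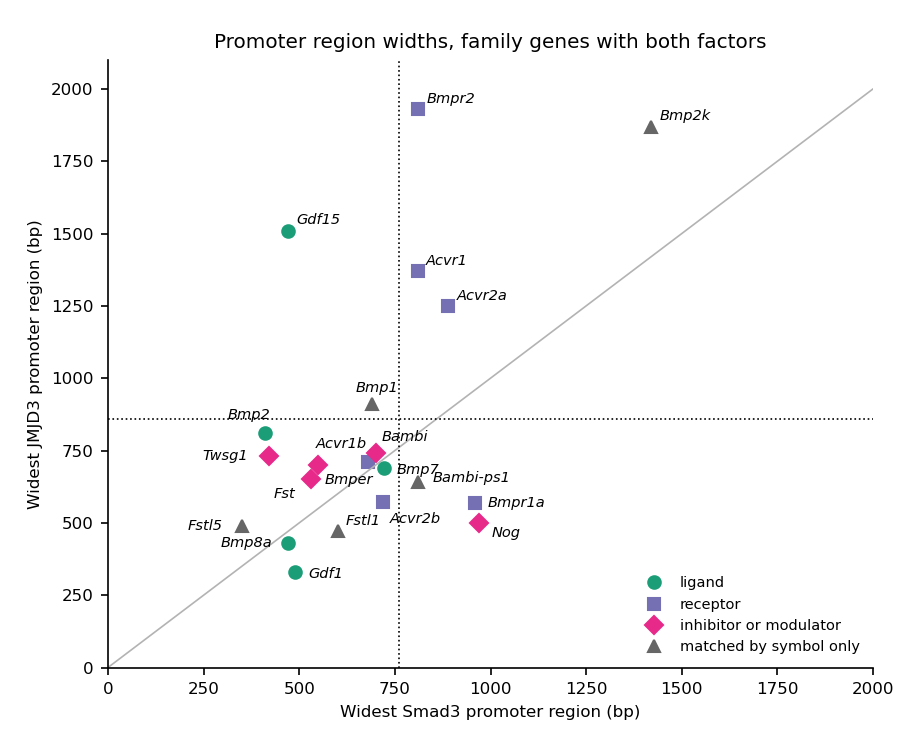
Width in bp of the widest Smad3 (x axis) and JMJD3 (y axis) promoter region for the 21 family genes with both, with marker shapes for roles. The grey line marks equal width and dotted lines the medians of all genes, 760 and 860 bp; Bmp2k, Bmpr2, Acvr1 and Acvr2a lie above both medians.

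Over all their peaks, 164 of 217 JMJD3 peaks of these genes overlapped a Smad3 peak (75.6%, 69.3 to 81.1), against 81.4% of all JMJD3 peaks, and 192 of 314 Smad3 peaks a JMJD3 peak (61.1%, 55.5 to 66.6), against 60.2%. All 37 JMJD3 promoter peaks overlapped a Smad3 peak by at least 1 bp (100%, 90.5 to 100), including that of Inha, against 93.4% of all promoter peaks. Of 180 distal JMJD3 peaks, 127 did (70.6%, 63.3 to 77.1), against 77.3%. In the other direction, 39 of 61 Smad3 promoter peaks overlapped JMJD3 (63.9%, 50.6 to 75.8), against 70.9%, and 153 of 253 distal ones (60.5%, 54.2 to 66.5), against 56.6%. Peaks beyond 50 kb of the TSS made up 40.8% of the Smad3 and 41.9% of the JMJD3 peaks of these genes, against 28.6% and 31.8% of all peaks. These shares were not scaled for the stretch closer to each gene's TSS, which limits how far a peak can lie. Of the 314 Smad3 peaks, 105 were distal and inside the gene, 109 upstream and 39 past its end. Peaks of 1 gene share its surroundings, so these peaks are not independent of each other.

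The 6 genes with the most distal peaks were Bmper, Bmpr1b, Acvr2a, Fstl1, Inhbb and Bmpr1a, with 53, 36, 31, 29, 27 and 25 over both lists. A gene far from its neighbours can be the closest gene to more peaks. The stretch closer to its TSS than to any other listed TSS was therefore measured, and over all genes it held 3.81 Smad3 and 2.45 JMJD3 peaks per 100 kb.

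Bmper, with 33 distal Smad3 and 20 distal JMJD3 peaks, holds a stretch of 811.2 kb, in which peaks stood at 4.31 and 2.59 per 100 kb, near the rate over all genes. Its number of distal regions was at percentiles 98.9 (Smad3) and 99.2 (JMJD3) of all genes. Inside the gene lay 16 Smad3 and 11 JMJD3 peaks, and upstream 15 and 7. The widest shared distal region of all members was there, 155616 bp downstream of the TSS, with Smad3 at chr9:23182521-23183750 and JMJD3 at chr9:23182441-23183760. A further one at chr9:23212541-23213740 for Smad3 and chr9:23212501-23213490 for JMJD3 lay within the same gene.

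Bmpr1b, a type I receptor gene without a promoter peak, had 19 Smad3 and 17 JMJD3 distal peaks at 4.10 and 3.67 per 100 kb. Of these, 12 and 7 lay inside the gene, and 14 of the 19 Smad3 peaks overlapped JMJD3. The widest shared region lay 75825 bp into the gene, at chr3:141568781-141570000 for Smad3 and chr3:141568921-141569970 for JMJD3. The nearest peaks to its TSS lay 45089 bp downstream for Smad3 and at -20130 bp for JMJD3.

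Acvr2a stood at the head of a long gene-poor stretch of 1918 kb, and all of its 18 Smad3 and 13 JMJD3 distal peaks lay upstream, the farthest at -1739681 bp. Peaks were sparse there, at 1.09 and 0.886 per 100 kb. Beyond 250 kb lay 14 and 11 of them. The widest shared region was at chr2:48336331-48337420 for Smad3 and chr2:48336171-48337220 for JMJD3. The closest TSS does not show which gene such a region acts on.

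Among genes with many distal peaks, Bmpr1a, Fstl1 and Bmpr2 lay in short stretches. Bmpr1a had 16.9 Smad3 and 10.3 JMJD3 peaks per 100 kb in 106.6 kb, Fstl1 16.8 and 14.0 in 107.0 kb, and Bmpr2 15.4 and 11.5 in 104.1 kb. Rates above these in both lists stood at genes with few peaks in shorter stretches, with 28.0 and 28.0 per 100 kb at Gdf15 and 22.5 and 30.0 at Fstl3. Gdf1 stood at 19.8 and 15.8, but its stretch was cut at the TSS it shares with Lass1, so that rate cannot be read. In Fstl1, 9 Smad3 and 10 JMJD3 distal peaks lay inside the gene, with shared regions at 11565 and 37500 bp from the TSS, the second 1220 bp wide in the Smad3 list and 1151 bp in that of JMJD3. In Bmpr1a, a shared region of 790 and 810 bp lay at -12003 bp, at chr14:35327341-35328130 for Smad3.

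Inhbb, with Smad3 alone at the promoter, had 18 distal Smad3 and 9 distal JMJD3 peaks, of which 15 and 8 lay past the gene end. Of the 9 JMJD3 peaks, 8 overlapped Smad3. Shared regions past the gene end included those at 32070, 93160 and 165265 bp from the TSS, the last at chr1:121153101-121154020 for Smad3 and chr1:121153101-121154110 for JMJD3. JMJD3 was thus listed around this gene without a promoter peak.

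Shared distal regions were also found at other genes. Eng, without JMJD3 at the promoter, had 1 inside the gene, 21561 bp from the TSS, 1150 bp wide in the Smad3 list and 1410 bp in that of JMJD3. Bmp2 had distal peaks of 5 and 7, with a shared region of 801 and 1070 bp at -226443 bp. Fst had 9 and 10 distal peaks, of which 7 in each list overlapped the other factor. Bmp7 had 13 distal Smad3 and 3 distal JMJD3 peaks.

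**Figure D5:**
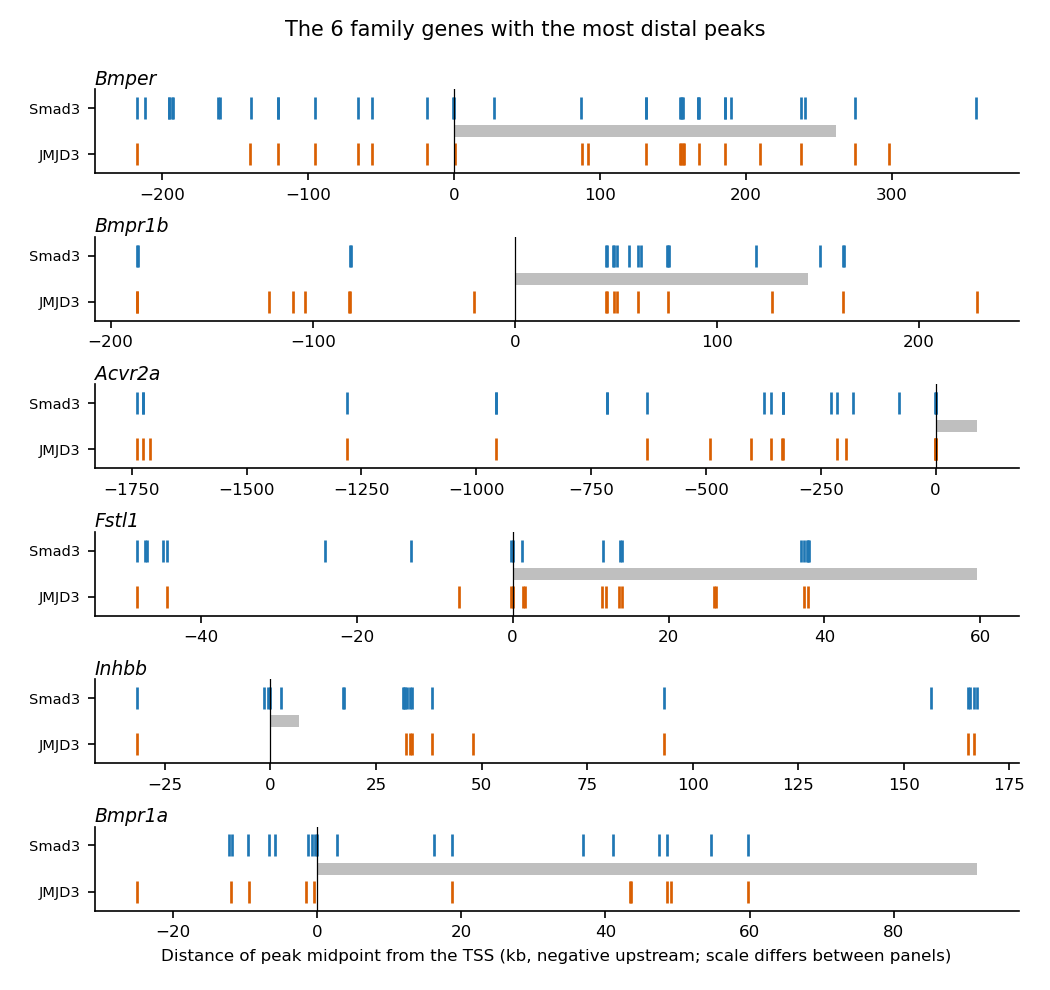
Positions of Smad3 (upper marks) and JMJD3 (lower marks) peak midpoints around the TSS of the 6 family genes with the most distal peaks, in kb, negative upstream, with the gene body as a grey bar and a scale of its own in each panel. In Bmper marks of both factors stand at the shared region inside the gene, and all distal Acvr2a peaks lie upstream.

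Distal regions of the family were of ordinary width. The 202 distal Smad3 regions had a median width of 415.5 bp, against 420 bp over 55404 distal regions of all genes, and the 147 distal JMJD3 regions 550 bp, against 600 bp over 35003.

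Other genes of the pathway were counted beside the family. Of 37 such genes, 36 were named in the lists, and 24 of these had promoter peaks of both factors, 5 of Smad3 only, 1 of JMJD3 only and 6 of neither. The shares of all genes were 55.1%, 17.9%, 1.95% and 25.0% in that order. Of the Smad genes downstream of BMPs, Smad1 and Smad5 had both (regions of 890 and 561 bp, and of 700 and 820 bp) and Smad9 had a Smad3 region of 500 bp only. The ubiquitin ligase genes Smurf1 and Smurf2 had both, as did the BMP co-receptor genes Rgma and Rgmb and the shared receptor-activated kinase gene Map3k7. The secreted antagonist genes Cer1 and Sost had neither at the promoter, with 7 and 8 distal Smad3 peaks. Msx1, a BMP target in the dorsal neural tube, had a JMJD3 region of 380 bp only. No test compared this list with the 48 genes.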

How the data were processed

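The peak lists were deposited by the authors, 1 per library, and hold positions and distances in bp but no count, signal or score. CASAVA, Bowtie 0.12.7, MACS 1.4 and the mm9 build are credited to the submitters' processing notes. The step each did, the thresholds and the use of the input library: not given in the sources used here. Peak calling decides how a broad signal is split, so peak numbers depend on it.

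From these files, genes were taken by symbol, peaks were joined at 10 bp or less (start minus previous end), and overlap meant at least 1 shared bp. The overlap and joining code was tested on simulated intervals. Shares carry exact Clopper-Pearson 95% intervals. The design allowed for a peak score, and since the lists hold none, width alone was used. Each peak names only its closest TSS, so where 2 starts lie close together only 1 gene is credited. The members and lists were chosen with earlier results of these data known. Every member may be named, with positions for those with promoter peaks and for the 6 with the most distal peaks. Sequences are RefSeq's (GRCm38.p6), for 6 genes, leaving out chromosome 18. Alternatives covered windows of 500, 2500 and 5000 bp, the 50% of peaks in the widest regions, equal numbers of peaks, peak edges within 1000 bp, stricter overlap and other joining. Exons and introns were not assigned. Python 3.11.15, numpy 2.4.6, pandas 2.3.3, SciPy 1.17.1 and matplotlib 3.10.9 were used. The values of 1 gene of the 48 are not reported here by name.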

Additional observations from a re-analysis of the deposited data

How the results depend on the processing

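Of 42 alternative values for 9 results, 30 stayed close to the reported value (counts and widths within 1.5 times, shares inside their 95% interval) and 12 moved. A count could pass this rule and still lie outside the 95% interval of the reported share. With equal numbers of peaks, Smad3 promoter peaks at 20 genes (41.7%) did so, the interval being 45.3 to 74.2. Windows of 500 to 5000 bp gave 27 to 34 genes with a Smad3 promoter peak, 20 to 25 with JMJD3 and 19 to 24 with both. With the 50% of peaks in the widest joined regions, promoter peaks were at 14 genes for Smad3, 9 for JMJD3 and 6 for both, distal JMJD3 peaks at 20, and overlap fell to 63.6% of JMJD3 and 50% of Smad3 peaks. This setting removes peaks in narrow regions by construction. With equal numbers of peaks, where only the Smad3 list was shortened, overlap was 53.9% for JMJD3 and 77.7% for Smad3. Promoter peaks were then at 20 genes for Smad3, below the 22 for JMJD3, and at 18 for both, Smad3 without JMJD3 at 2 and JMJD3 without Smad3 at 4, and distal Smad3 peaks at 31. Reciprocal overlap of 50% gave 53.5% and 36.9%, and midpoints within 200 bp 65.4% and 48.1%, both stricter by construction. Counting any peak edge within 1000 bp added Fstl3 and Inha for Smad3 and Fstl3 for JMJD3. No paired analysis was possible because there was 1 library per antibody, and for the same reason no replicate could be left out. Depth is unknown, so a gene without a listed peak is not shown to be unbound.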
